A study of Caenorhabditis elegans with 6 samples.

Results

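The transcripts described here encode proteins that build the meiotic chromosome axis, hold homologous chromosomes together in the synaptonemal complex, or bring homologs together at their pairing centres. The genes were chosen by symbol: him-3, htp-1, htp-3, rec-8, syp-1, syp-2, syp-3, zim-1, zim-2 and zim-3. All worm probes whose sequence name mapped to one of these symbols were taken, which gave 11 probes for 10 genes, out of 22490 worm probes for 17922 named genes. Only htp-1 had more than 1 probe, and unless stated each gene is given by its brightest probe, chosen by mean log2 intensity over all channels.

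In meiotic prophase each chromosome is organised into loops along a protein axis, and the synaptonemal complex then joins the axes of paired homologs along their length. In C. elegans these genes are used in the germline, where germ cells of the larval gonad enter meiosis in the late larval stages. Pairing starts at a special region near one end of each chromosome, the pairing centre, where a zinc finger protein of the ZIM and HIM-8 family binds.

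The material was whole worms of the Bristol N2 wild type, a hermaphrodite laboratory strain with somatic and germline tissue, so transcripts of germ cells were measured in the RNA of the whole body. The treated worms hatched and grew on agar that held diazinon (DZN) dissolved in acetone, an organophosphorus compound used against insects, whose target is acetylcholinesterase. The control worms grew on agar with acetone only, and both were fed E. coli OP50 and collected after 72 h at 16 °C, each sample from 4 dishes. The sources disagree on the dose of DZN (1 mg/ml in the sample titles, 0.5 mg/ml in the treatment protocol, 1 mg/l in the methods) and on the stage (L3/L4 in the labels, L3 in the protocol), so neither is settled here. A fall in a germline transcript in such material can come from fewer germ cells or from less RNA per cell, and these cannot be told apart.

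Each of 6 two-colour arrays carried 1 DZN and 1 control extract. On the 3 arrays called DZN-Cy5 the DZN extract was in Cy5 and the control extract in Cy3, and on the 3 arrays called DZN-Cy3 the dyes were swapped. The DZN-Cy3 arrays were the brighter ones, with 63.3 to 81.4% of worm probes above local background per channel on the DZN-Cy3 arrays and 49.7 to 66.2% on the DZN-Cy5 arrays, so array brightness cannot be told apart from dye orientation. The scanner's photomultiplier setting for Cy3 was 55 on DZN-Cy3 replicates 1 and 2 and 50 on the other arrays. For Cy5 it was 50 on replicate 3 of each dye orientation and 48 on the other arrays. Across all probes the ratios of 2 arrays correlated between -0.24 and 0.57 (median 0.13 over 15 pairs of arrays). For the axis and synapsis genes, all but 1 of the 120 channel readings of the 10 brightest probes were above background, and no member probe had saturated pixels. Some readings were close to background, such as the zim-3 control on DZN-Cy5 replicate 2, at 185 against 151. Germ cell and P granule markers, the defining transcripts of the tissue in question, were present as well, with 16 of 19 above background in all 12 channels.

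The first question was whether transcripts of the axis and synapsis genes differed between DZN-treated and control worms. The axis gene him-3 and the synaptonemal complex genes syp-2 and syp-3 were lower in DZN worms than in control worms on 6 of 6 arrays, by 0.31 to 0.59 on the log2 scale, after loess normalization. With each array centred on its median in place of loess, him-3 and syp-2 were below 0 on 4 of 6 arrays and syp-3 on 5. The cohesin gene rec-8 was higher on every DZN-Cy5 array and lower on every DZN-Cy3 array. The pairing centre genes zim-1, zim-2 and zim-3 and the other members had mean log2 ratios between -0.20 and 0.23, with both signs among their arrays. No member passed the test after adjustment over all probes, so none is said here to have changed.

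**Figure D1:**
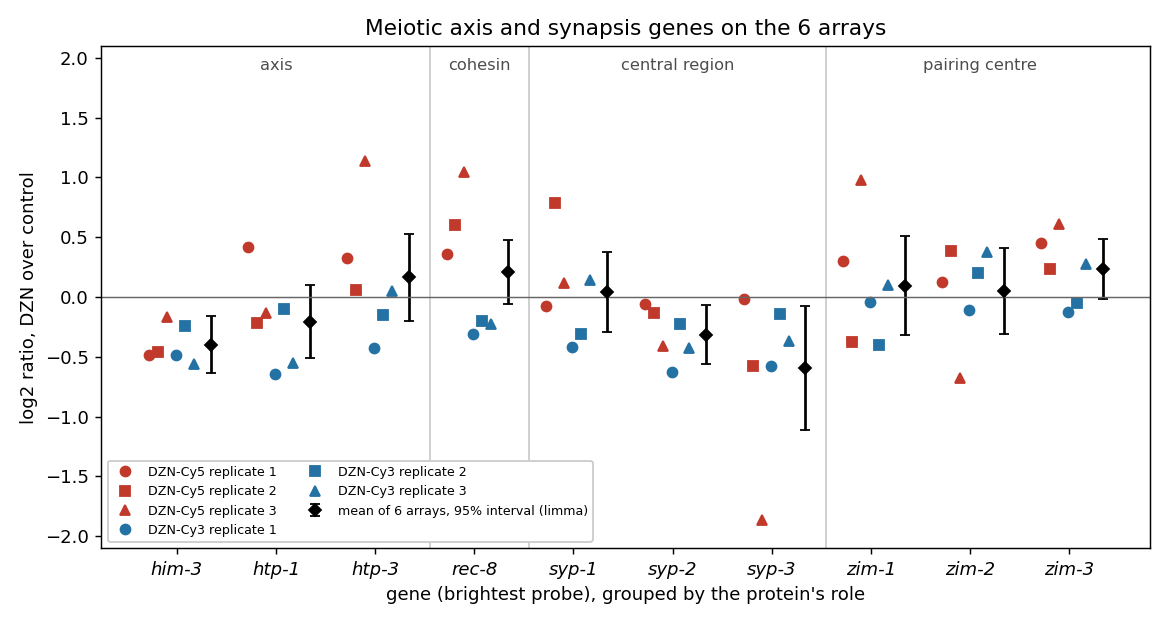
The y axis is the log2 ratio of DZN over control and the x axis lists the 10 genes by the role of their protein; coloured points are the 6 arrays (red for DZN in Cy5, blue for DZN in Cy3), and black diamonds are the limma means with 95% intervals. All 6 points of him-3, syp-2 and syp-3 lie below 0, the red points of rec-8 all lie above 0 and its blue points all below 0, and the lowest point of all is syp-3 on DZN-Cy5 replicate 3 (-1.87).

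HIM-3, HTP-1 and HTP-3 are HORMA domain proteins of the chromosome axis. HTP-3 is needed to bring the other HORMA proteins to the axis, HIM-3 is needed for pairing and synapsis, and HTP-1 helps to keep synapsis between homologs only. The log2 ratio of him-3 (ZK381.1) was -0.49, -0.46 and -0.17 on the DZN-Cy5 arrays (replicates 1, 2 and 3) and -0.49, -0.24 and -0.56 on the DZN-Cy3 arrays (replicates 1, 2 and 3). Every array was thus below 0, and the means of the dye orientations were close, at -0.37 ± 0.18 on the DZN-Cy5 arrays and -0.43 ± 0.17 on the DZN-Cy3 arrays (SD, n = 3 each). The level of him-3, the normalized log2 intensity, averaged 11.81 ± 0.47 in DZN worms and 12.21 ± 0.45 in control worms (SD, n = 6 each). The levels ran between 11.25 and 12.33 in DZN worms and between 11.67 and 12.78 in control worms, so they overlapped, and the difference is seen within arrays. The limma estimate was -0.40 ± 0.10 (SE, 95% interval -0.64 to -0.16, n = 6 arrays), a 1.32-fold lower signal in DZN worms. Its unadjusted p was 0.00505 and its adjusted p 0.281. The ratio of him-3 varied little over the arrays, with an SD of 0.16 against a median SD of 0.35 over all probes, and 6.91% of probes had a smaller SD. This small spread was tied to loess, since with median centring the SD of him-3 was 0.59, against a median of 0.61 over all probes.

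The brightest probe of htp-1 (F41H10.10) gave log2 ratios of 0.42, -0.21 and -0.14 on the DZN-Cy5 arrays and -0.64, -0.10 and -0.55 on the DZN-Cy3 arrays. Thus 5 of 6 arrays were below 0, and DZN-Cy5 replicate 1 was the exception. The other htp-1 probe gave -0.11, 0.53 and -0.75 on the DZN-Cy5 arrays and -0.65, -0.05 and -0.36 on the DZN-Cy3 arrays, also with 5 of 6 arrays below 0, but with DZN-Cy5 replicate 2 above 0. The probes therefore differed in which array was high, while their means were near each other: -0.20 ± 0.13 (adjusted p = 0.601) for the brightest and -0.23 ± 0.17 (adjusted p = 0.656) for the other (limma, SE). For htp-3 (F57C9.5) the log2 ratios were 0.33, 0.06 and 1.14 on the DZN-Cy5 arrays and -0.43, -0.15 and 0.05 on the DZN-Cy3 arrays. The estimate of 0.17 ± 0.16 (adjusted p = 0.725) rested on DZN-Cy5 replicate 3, since it was 0.01 without that array.

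HTP-2, a HORMA protein very similar to HTP-1, is not one of the 10 genes but belongs to the same axis. Its brightest probe gave log2 ratios of -0.29, -0.50 and -0.41 on the DZN-Cy5 arrays and -0.48, -0.23 and -0.49 on the DZN-Cy3 arrays. Like him-3 it was below 0 on 6 of 6 arrays with a small spread, and its estimate was -0.40 ± 0.10 (unadjusted p = 0.00366, adjusted p = 0.255). A second htp-2 probe was below 0 on 4 of 6 arrays, at -0.27 ± 0.21 (adjusted p = 0.68). Because htp-1 and htp-2 are near copies, signal shared between their probes is possible, and probe sequences were not used here to check it.

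REC-8 is the meiotic kleisin subunit of cohesin, the ring complex that holds sister chromatids together at the axis. The log2 ratio of rec-8 (W02A2.6) was 0.36, 0.60 and 1.04 on the DZN-Cy5 arrays and -0.31, -0.20 and -0.22 on the DZN-Cy3 arrays. The means were 0.67 ± 0.35 on the DZN-Cy5 arrays and -0.24 ± 0.06 on the DZN-Cy3 arrays (SD, n = 3 each), so the sign followed the dye orientation. Spots were dimmer on the DZN-Cy5 arrays, where the DZN channel read 520, 978 and 601 against a local background of 157 to 163, and the control channel 364, 312 and 303 against a background of 150 to 219. On the DZN-Cy3 arrays the DZN channel read 1111, 4856 and 1059, and the control channel 1761, 4614 and 2325. Over all 6 arrays the limma estimate was 0.21 ± 0.12 (95% interval -0.06 to 0.48, adjusted p = 0.544). It was 0.12 without DZN-Cy5 replicate 3, 0.29 without DZN-Cy5 replicate 1 and 0.13 without background correction. With only the spots of quality code 3 it was 0.048. That setting dropped rec-8 on DZN-Cy5 replicate 1 only, and it also fitted loess on the code 3 spots alone.

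SYP-1, SYP-2 and SYP-3 are coiled-coil proteins of the central region of the synaptonemal complex, which span the gap between the paired axes and depend on each other for loading. For syp-2 (C24G6.1) the log2 ratios were -0.06, -0.13 and -0.41 on the DZN-Cy5 arrays and -0.63, -0.23 and -0.43 on the DZN-Cy3 arrays. All 6 were below 0, and those of DZN-Cy5 replicates 1 and 2 were closest to it. The level of syp-2 ran between 8.99 and 11.12 in DZN worms and between 9.42 and 11.53 in control worms, so the treatments overlapped. The estimate was -0.31 ± 0.11 (95% interval -0.56 to -0.07, unadjusted p = 0.0186, adjusted p = 0.375).

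For syp-3 (F39H2.4) the log2 ratios were -0.01, -0.57 and -1.87 on the DZN-Cy5 arrays and -0.58, -0.14 and -0.37 on the DZN-Cy3 arrays. DZN-Cy5 replicate 3 stood far below the other 5 arrays, while DZN-Cy5 replicate 1 was close to 0, and above it without background correction (0.024). On DZN-Cy5 replicate 3 the DZN channel read 453 against a background of 165, and the control channel 1212 against a background of 160, so both were measured. The estimate was -0.59 ± 0.22 (95% interval -1.11 to -0.07, unadjusted p = 0.0308, adjusted p = 0.415), the lowest of the 10 genes. Without that array it was -0.33 (unadjusted p = 0.0458, adjusted p = 0.431), and him-3 was then lower, at -0.45. For syp-1 (F26D2.2) the log2 ratios were -0.07, 0.79 and 0.12 on the DZN-Cy5 arrays and -0.42, -0.31 and 0.15 on the DZN-Cy3 arrays. With 3 arrays on each side of 0, its estimate was 0.04 ± 0.14 (adjusted p = 0.941), and it changed sign when DZN-Cy5 replicate 2 (-0.085) or DZN-Cy3 replicate 3 (-0.04) was left out.

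**Figure D2:**
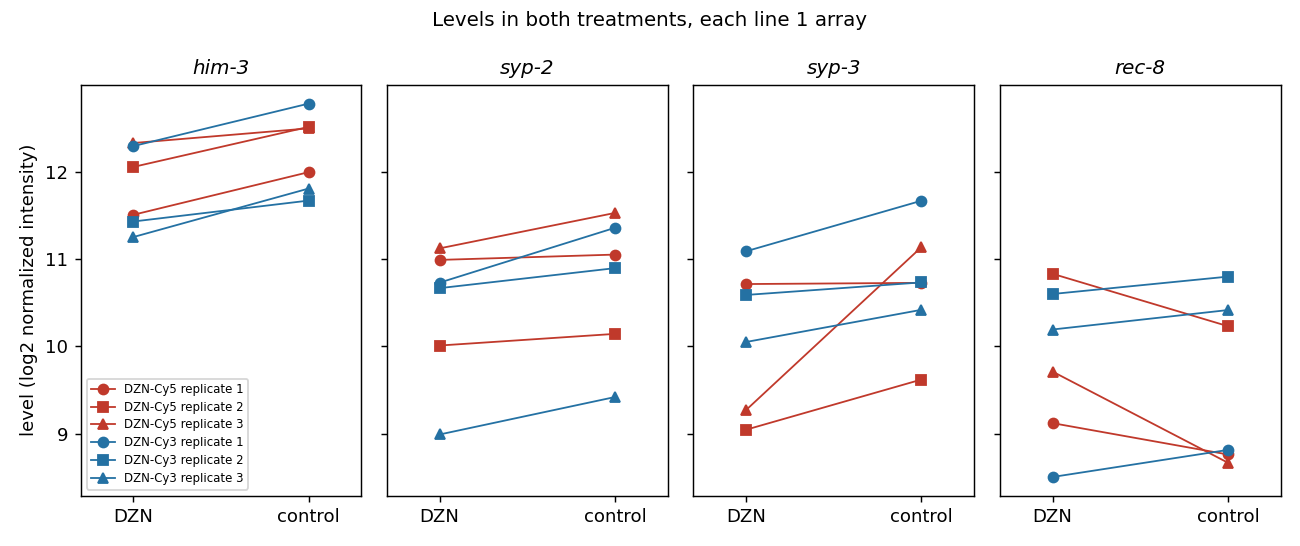
The y axis is the normalized log2 intensity, with DZN at the left and control at the right of each panel, and each line joins the DZN and control extracts of 1 array (red for DZN in Cy5, blue for DZN in Cy3). For him-3, syp-2 and syp-3 every line is lower at DZN, most steeply for syp-3 on DZN-Cy5 replicate 3, whereas for rec-8 the 3 red lines are higher at DZN and the 3 blue lines lower.

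The proteins ZIM-1, ZIM-2 and ZIM-3 have zinc fingers and bind the pairing centres of the autosomes, and their relative HIM-8 binds that of the X chromosome. In the RefSeq annotation of assembly WBcel235, which was used for names and gene order only, zim-1, zim-2, zim-3 and him-8 follow one another as neighbouring protein-coding genes. The log2 ratios of zim-3 (T07G12.11) were 0.45, 0.24 and 0.61 on the DZN-Cy5 arrays and -0.13, -0.05 and 0.28 on the DZN-Cy3 arrays. With 4 of 6 arrays above 0, zim-3 had a mean of 0.23 ± 0.11 (95% interval -0.02 to 0.48, adjusted p = 0.49). For zim-2 (T07G12.10) the log2 ratios were 0.12, 0.39 and -0.68 on the DZN-Cy5 arrays and -0.10, 0.20 and 0.38 on the DZN-Cy3 arrays, which gave 0.05 ± 0.16 (adjusted p = 0.931). Its control reading on DZN-Cy5 replicate 2, 163 against a background of 153, was the only one of the 120 channel readings that was not above background.

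For zim-1 (T07G12.6) the log2 ratios were 0.30, -0.37 and 0.98 on the DZN-Cy5 arrays and -0.04, -0.40 and 0.10 on the DZN-Cy3 arrays, with an estimate of 0.10 ± 0.18 (adjusted p = 0.874). With 3 arrays on each side of 0, leaving out DZN-Cy5 replicate 3 moved the estimate to -0.074. The sign of zim-2 also rested on single arrays, being -0.060 when DZN-Cy5 replicate 2 was left out and -0.0040 when DZN-Cy3 replicate 3 was. On DZN-Cy5 replicate 3 the neighbours went apart, zim-1 and zim-3 being above 0 and zim-2 below 0, and on DZN-Cy5 replicate 2 it was zim-1 that was below 0.

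Read as a list, 0 of the 10 genes passed limma at an adjusted p under 0.05, against 0.0178% of all worm probes, and 0 of 10 passed rank products at a percentage of false positives (PFP) under 0.05, against 1.18% of all probes. The lowest adjusted p of a member was 0.281 (him-3) and the lowest PFP 0.273 (syp-3). At an unadjusted p under 0.05 there were 3 of 10 lower in DZN worms (him-3, syp-2 and syp-3), where 7.49% of all probes were lower, and none higher, where 758 of 22490 probes were. The same 3 genes were the only members below 0 on all 6 arrays, which 3.11% of all probes were. By median centring no member was below 0 on all 6. In none of the 10 genes were the levels of DZN and control worms free of overlap, against 0.0978% of all probes. The median log2 ratio of the 10 genes was 0.05, with 6 above 0 and 4 below, and that of all probes was 0.00. With median centring 0 of the 10 genes were lower at an unadjusted p under 0.05, and him-3 was at -0.30 (adjusted p = 0.86, limma). Without DZN-Cy3 replicate 1 only him-3 was, at -0.38.

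Members were also set against each other within arrays, where any shift common to an array drops out. Of 45 pairs, 9 had the same order on 6 of 6 arrays. The ratio of him-3 was below those of htp-3, rec-8 and zim-3, that of htp-1 below zim-3, that of syp-2 below htp-3, rec-8 and zim-3, and that of syp-3 below zim-2 and zim-3. The difference was -0.63 ± 0.29 for him-3 minus zim-3 and -0.55 ± 0.29 for syp-2 minus zim-3 (SD, n = 6 arrays). For these pairs a two-sided exact sign-flip permutation test gave p = 0.03125, the smallest that 6 arrays allow, and a Benjamini-Hochberg value over the 45 pairs of 0.156. At this number of arrays at least 29 of the 45 pairs would have to reach the smallest p for any to pass, so the test could hardly call a pair. With median centring 4 pairs kept one order on all arrays, and 12 did without background correction and 12 in the authors' table. The pairs share genes, and the share among pairs of all probes was not computed.

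The second question was whether the dye orientation, which also marks the brighter arrays, went with the ratios. The difference between DZN-Cy5 and DZN-Cy3 arrays was above 0 in 8 of the 10 genes, with a median of 0.41, while it was above 0 in 10878 of 22490 probes, with a median of -0.02. It was below 0 in syp-3 (-0.45 ± 0.45) and zim-2 (-0.21 ± 0.31), but these signs turned without DZN-Cy5 replicate 3 (0.070 for syp-3 and 0.098 for zim-2) and with median centring (0.097 for syp-3 and 0.061 for zim-2), and that of zim-2 also with plain background subtraction (0.024). The largest was rec-8 at 0.91 ± 0.23 (SE, unadjusted p = 0.00477, adjusted p = 0.316), followed by htp-3 at 0.69 ± 0.31 (unadjusted p = 0.0615, adjusted p = 0.449). None of the 10 passed at an adjusted p under 0.05, as 0% of all probes did. At an unadjusted p under 0.05, 1 of 10, rec-8, was higher on the DZN-Cy5 arrays, against 6.89% of all probes. This count was 6 of 10 with median centring, where it was 19% of all probes and the median difference of all probes was 0.15. It was 0 of 9 with only the spots of quality code 3, where rec-8 was at 0.57. Leaving out DZN-Cy5 replicate 2 gave 3 of 10, and scale normalization, no background correction, the authors' table and the replicate block gave 2 each. After loess rec-8 was also the only member above 0 on the 3 DZN-Cy5 arrays and below 0 on the 3 DZN-Cy3 arrays, a pattern seen in 3.37% of all probes. Under median centring the adjusted p of rec-8 for the dye orientation was 0.0443, 1 of 10 genes passing where 1394 of 22490 probes did. In him-3 the difference was 0.06 ± 0.20 after loess and 0.89 with median centring (adjusted p = 0.0988).

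**Figure D3:**
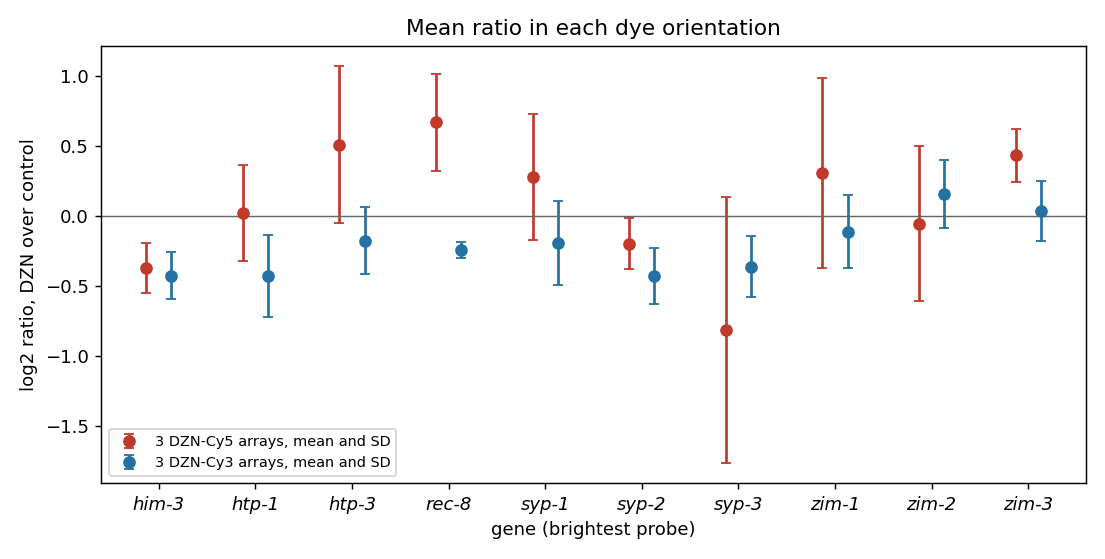
The y axis is the mean log2 ratio of DZN over control with its SD, for the 3 DZN-Cy5 arrays (red) and the 3 DZN-Cy3 arrays (blue) of each gene on the x axis. The red mean lies above the blue one in 8 genes, the gap is widest in rec-8 (0.67 against -0.24), and the means of him-3 lie side by side after loess (-0.37 and -0.43).

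The third question was how the genes moved on each array beside other germline transcripts. The 10 genes had a median log2 ratio of 0.21, -0.04 and -0.01 on the DZN-Cy5 arrays and of -0.42, -0.17 and -0.09 on the DZN-Cy3 arrays. All 10 were below 0 on DZN-Cy3 replicate 1, and 9 of 10 on DZN-Cy3 replicate 2, with zim-2 the exception. The widest spread was on DZN-Cy5 replicate 3, with -1.87 for syp-3, 1.14 for htp-3 and 5 genes above 0. On that same array 19 of 19 germ cell and P granule markers were above 0, with a median of 0.70, and on DZN-Cy3 replicate 1 none of the 19 were, with a median of -0.22. Over 6 arrays the germ cell list had a median of 0.04, with no gene at an unadjusted p under 0.05 by limma, none by the adjusted p and none by rank products. The part of germ cell number in the ratios of the axis and synapsis genes was not tested.

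Of 23 other listed genes for the axis, cohesion, pairing and synapsis, 22 were measured, with a median log2 ratio of 0.00 (11 above and 11 below 0). None passed limma or rank products, and 1, htp-2, was lower at an unadjusted p under 0.05, against 1684 of 22490 probes. The next in order of p were lab-1, an axis-associated protein that protects sister cohesion, at -0.34 ± 0.16 (adjusted p = 0.509), and chk-2, the kinase that starts pairing at the pairing centres, at 0.26 ± 0.14 (adjusted p = 0.537). The chk-2 probe was dim, above background in 3 of 6 DZN and 1 of 6 control channels. Its mean was -0.16 on the DZN-Cy5 arrays and 0.68 on the DZN-Cy3 arrays. Of 30 listed recombination and crossover genes 29 were measured, with a median of 0.07 (19 above and 10 below 0) and 0 calls by either test. At an unadjusted p under 0.05, 1 was higher, rad-54.L, a helper of strand exchange, at 0.30 ± 0.12 (adjusted p = 0.448), and 1 was lower, brc-2, the BRCA2 relative that loads RAD-51, at -0.24 ± 0.10 (adjusted p = 0.448). Over all probes 758 of 22490 were higher at that p and 1684 lower. The brc-2 ratio was below 0 on 6 of 6 arrays. In these lists too the ratio was more often higher on the DZN-Cy5 arrays, in 17 of 22 and 24 of 29 genes. So it was in 16 of 19 germ cell and P granule markers and 15 of 17 oocyte and eggshell markers. Sperm markers had 28 of 30 and yolk protein genes 6 of 6, so the pattern was not particular to the meiotic lists.

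The lists of later germline stages had wider array-to-array swings than the axis and synapsis genes. Oocyte and eggshell markers (17 of 18 measured, median -0.05) had array medians of -0.13, 0.07 and 0.94 on the DZN-Cy5 arrays and -0.68, -0.64 and 0.42 on the DZN-Cy3 arrays. Sperm markers (30 of 40 measured) had a median of -0.28, with 26 of 30 below 0, and array medians of -0.16, -0.03 and 0.61 on the DZN-Cy5 arrays and -0.86, -1.07 and -0.20 on the DZN-Cy3 arrays. In the sperm list 8 genes were lower at an unadjusted p under 0.05, 1 was called lower by rank products and 0 by limma. Over all 22490 probes 1684 were lower at that p, 148 were called lower by rank products and 1 by limma. The yolk protein genes, which are made in the adult intestine for the oocyte, had a median of -1.64, with 6 of 6 called lower by rank products and 0 by limma. Their array medians ran between -4.17 on DZN-Cy3 replicate 1 and 1.12 on DZN-Cy3 replicate 3. The arrays with the lowest medians of the 10 genes, DZN-Cy3 replicates 1 and 2, were also the lowest for oocyte and sperm markers, and all 6 yolk protein genes were below 0 on both. On DZN-Cy5 replicate 1, however, all 6 yolk protein genes were below 0 as well (median -3.24), and the 10 genes had their highest median there (0.21). The part of developmental stage in the axis and synapsis ratios was not tested.

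**Figure D4:**
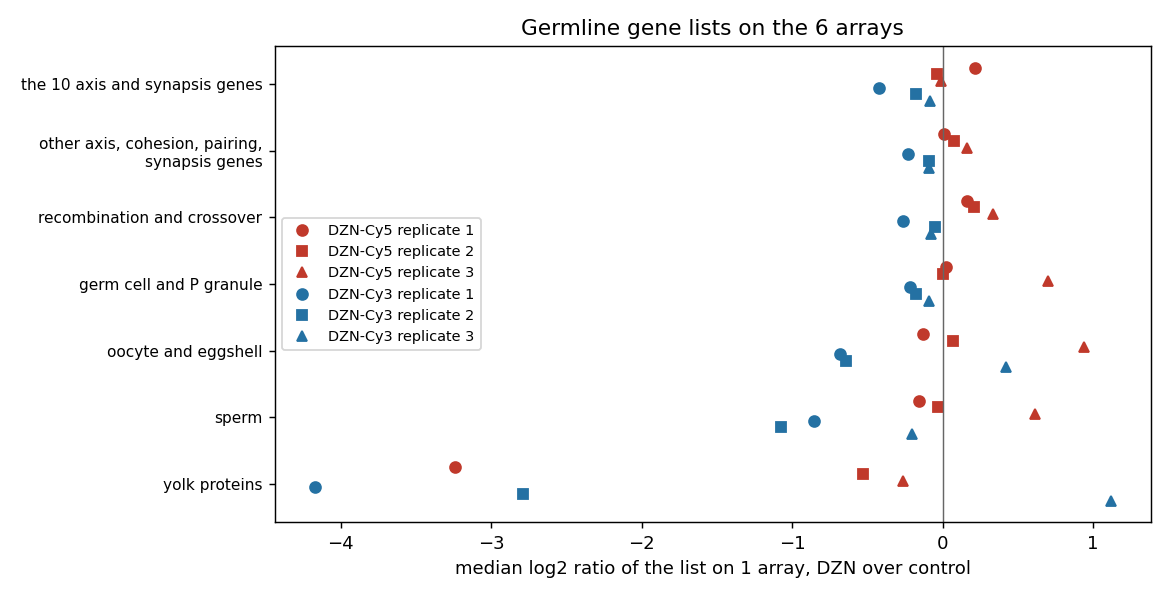
The x axis is the median log2 ratio of DZN over control for each list on each array (red for DZN in Cy5, blue for DZN in Cy3), with the lists down the page. The medians of the 10 axis and synapsis genes keep between -0.42 and 0.21, the germ cell, oocyte and sperm lists are highest on DZN-Cy5 replicate 3, and the yolk protein genes reach -4.17 on DZN-Cy3 replicate 1.

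Markers of somatic tissues had list medians near 0 over the 6 arrays, at 0.03 for intestine, 0.00 for muscle, 0.08 for neurons, -0.08 for hypodermis and cuticle and 0.06 for the somatic gonad. Medians of single arrays ran between -0.37 and 0.14 for neurons and between -0.33 and 0.11 for hypodermis and cuticle. They ran between -0.08 and 0.15 for intestine, between -0.09 and 0.13 for muscle and between -0.05 and 0.13 for the somatic gonad. None of their genes passed limma, and 1 hypodermis and cuticle gene was called lower by rank products, against 148 of 22490 probes. At an unadjusted p under 0.05 by limma, 1 neuron gene was higher and 2 lower. The hypodermis and somatic gonad lists each had 1 higher and 1 lower, muscle had 1 lower and intestine none. Over all probes 758 of 22490 were higher at that p and 1684 lower. The ratio was higher on the DZN-Cy5 arrays in 5 of 11 intestine, 8 of 12 muscle and 4 of 13 neuron genes. For hypodermis and cuticle it was 11 of 16, and for the somatic gonad 7 of 9.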

How the data were processed

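RNA of DZN and control worms was compared on 6 arrays. Linear intensity of each spot and of its surroundings was deposited as the scanner gave it, without normalization. Per the file headers they also hold the percent of saturated pixels per spot and a quality score, a code (meaning not given in the sources used here). A further table, of log2 ratios, was deposited by the authors. It equalled a loess fit without background correction on the scanner values, in the direction DZN over control (every array with correlation 1 and slope 1), and served as an alternative. The authors named limma, with no version. A genome build for the probes was not given in the sources used here.

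Of 23232 spots per array, 22490 were worm probes and 742 control or empty spots, which were left out. Probe names were matched through the RefSeq table of assembly WBcel235 (21413 probes matched, 1077 not). Spot means were background corrected (normexp, offset 50), normalized by loess within and Aquantile between arrays, and fitted (lmFit and eBayes, dye orientation in the model) in limma 3.58.1 under R 4.3.3. Tests are two-sided, with Benjamini-Hochberg adjustment over all probes. There were 4 residual and 3.56 prior degrees of freedom. Values after ± beside an estimate are SE from limma. Rank products were coded from their published definition with 100 permutations. Above background means a foreground over the mean local background by 2 SD. No worm spot was left out for its quality code, which departs from the plan. The number of arrays limits the precision. The methods call the 6 arrays independent biological replicates. Fits were tested on simulated data.

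The members and the lists were chosen with earlier results of these data known. All members are named with all probes, and from each other list at most the 3 genes with the smallest unadjusted p. Alternatives were other background corrections and normalizations, filters, the fit without the dye term, the authors' table, the mean of all probes, the replicate block, and each array left out.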

Additional observations from a re-analysis of the deposited data

Results flagged for a closer look

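The log2 ratio of rec-8 was 0.91 higher on the DZN-Cy5 arrays than on the DZN-Cy3 arrays, since every DZN-Cy5 array was above 0 and every DZN-Cy3 array below 0. The test of this difference gave an adjusted p of 0.316 (limma, n = 3 arrays each), and 3.37% of all probes showed the same pattern.

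In 33 groups of 6 readings, 3 held a value far from the others, where chance gives about 1 in 20. The log2 ratio of syp-3 was -1.87 on DZN-Cy5 replicate 3, with the nearest other array at -0.58. The DZN level of zim-1 was 7.04 on DZN-Cy3 replicate 2, with the nearest other at 8.65. The control level of zim-2 was 7.50 on DZN-Cy5 replicate 2, with the nearest other at 8.60.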

How the results depend on the processing

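Of 180 values of single members under 20 alternatives, 175 kept their direction and 5 changed sign, all of them when an array was left out: syp-1 ranged between -0.085 and 0.13, zim-1 between -0.074 and 0.27 and zim-2 between -0.060 and 0.21. Some of the 175 could not differ from the main fit. Leaving out Aquantile, the dye term or dim probes gave each member the same log2 ratio as the main fit. So did robust and trended eBayes and the replicate block. These values are no check on direction. No member passed at an adjusted p under 0.05 in any limma alternative, nor by rank products, which called 266 of all probes. The calls of limma over all probes went between 0 and 30, and to 132 without DZN-Cy3 replicate 3. Correlations of deviations were 0.15, -0.01 and -0.08 between same-numbered arrays, and between -0.34 and 0.29 for the other combinations. With 3 arrays per dye orientation, these values cannot show whether the replicate numbers pair the samples. With the replicate block 0 members and 0 of all probes were called, against 4 probes without it. The 3 members lower at an unadjusted p under 0.05 became 0 under median centring and 1 to 3 when an array was left out. For the dye orientation 1 member was called under median centring, which moved the median of all probes to 0.04 and the share of higher ratios to 58.9%, against 50.8%. The cause was not tested. The zim-1 probe was above background in 6 of 6 DZN and 6 of 6 control channels. Some of its readings were close to background, such as 298 against 193 in the control on DZN-Cy5 replicate 1. It had quality code 3 on only 2 arrays, so it was not fitted with only the code 3 spots.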
